A study of Mus musculus with 8 samples.

Results

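Potassium channel genes were described across 4 conditions in RNA from a mouse fibroblastic reticular cell (FRC) line. All rows of the deposited count table whose symbol opens with Kcn, further small letters and a number were taken, and those with at least 10 counts summed over the 8 libraries were kept. The members were thus chosen by their summed counts. Of 55367 rows in the table, 98 carried such a symbol. Of these, 45 had no count in any library, 31 had 1 to 9 counts and 22 were kept. Just outside this limit were Kcnip4, Kcnn3 and Kcnk6, with 9, 8 and 6 counts. Of the 22 members, 15 had at least 10 counts in at least 3 libraries and were tested, and the other 7 held too few counts for a test.

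The cells were a single FRC line made from lymph nodes of C57BL/6 mice carrying the p53 ER/ER allele, so all 4 groups shared this background and this 1 line. Cells were kept for 4 days in tumor cell-conditioned medium (TCM, RPMI conditioned by B16.F10 melanoma cells), in control conditioned medium (CCM, RPMI conditioned by FRCs themselves), in RPMI with 15 mmol/L lactic acid (LA), or in RPMI with the same volume of water (vehicle), with 2 libraries for each. TCM was compared with CCM and LA with vehicle, to ask what tumor-derived factors and LA alone do to FRC transcripts. The libraries held 8232889 to 14107964 counts, with a median of 10111168.5, and 3 counts in a library, used as the floor, equal 0.213 to 0.364 CPM (counts of a gene in 1000000 counts of its library). Levels below are CPM after TMM scaling of the libraries, given as mean ± SD over 2 libraries, and intervals and floors cover counting error only.

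Potassium channels let potassium ions leave or enter the cell along their gradient and so set the resting membrane potential and, through it, cell volume and calcium entry. Pore-forming subunits open on voltage, on calcium or sodium ions, or on membrane stretch. Silent voltage-gated subunits do not form a channel alone but join other pore subunits, and auxiliary subunits bind to the pore proteins and change their gating, their amount at the cell surface or both. In connective tissue cells such channels are best known for keeping the membrane potential negative.

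The labelled cell type was checked first. Of 9 markers of FRCs, Col1a1 (group means from 13287 to 16912 CPM), Pdgfrb, Vcam1, Pdpn and Pdgfra were well detected, Il7 and Thy1 had 26 counts or fewer in every library, and the chemokines Ccl19 and Ccl21a were at or next to 0. All 4 blood cell markers had 0 counts in every library, and the 3 endothelial markers summed to 0.843 to 2.07 CPM. Of 6 melanoma markers, Tyrp1 had 6 and 3 counts and Dct 1 and 1 count in the TCM libraries and none elsewhere, and the summed level ran from 1.64 to 1.90 CPM in TCM against 0.956 to 1.77 in CCM, most of it from Pmel. The 5 neuron and glia markers summed to 16.4 to 45.9 CPM, nearly all Tubb3, with Snap25 and Rbfox3 at 0 in every library. Tubb3 was lower in LA than in vehicle (17.6 against 42.2 CPM, log2 FC -1.28, adjusted P = 0.00204) and in CCM than in vehicle (log2 FC -0.74, adjusted P = 0.0433). The 5 smooth muscle and pericyte markers summed to 6061 to 7065 CPM in TCM and 5086 to 5093 CPM in CCM, nearly all Acta2. Acta2 alone had a higher mean in TCM than in CCM (6539 against 5061 CPM), and did not pass (log2 FC 0.37, adjusted P = 0.0738). Myh11, Cnn1, Des and Rgs5 had lower means in TCM than in CCM. The part of such cells, or of RNA carried over in the medium, in the results below was not tested.

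The 4 pore-forming members that passed a test below share a short stretch of coding sequence, the selectivity filter, whose backbone oxygens line the narrowest part of the pore. It is shown for each from the longest coding transcript in GENCODE M21 (build GRCm38), with the 15 filter bases in capitals. Each window lies within 1 coding exon.
Kcna4, chr2:107296480-107296524, plus strand: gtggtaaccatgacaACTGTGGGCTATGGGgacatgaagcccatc
Kcnf1, chr12:17175046-17175090, minus strand: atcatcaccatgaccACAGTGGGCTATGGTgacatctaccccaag
Kcns3, chr12:11091560-11091604, minus strand: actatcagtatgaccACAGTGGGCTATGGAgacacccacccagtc
Kcnh5, chr12:75087451-75087495, minus strand: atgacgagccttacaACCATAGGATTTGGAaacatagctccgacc
Kcnf1 and Kcns3 had 14 of these 15 bases in common, and Kcna4 had 13 in common with each of them. Among these 4 Kcnh5 stood apart, with 9 of 15 in common with Kcna4, 9 with Kcnf1 and 10 with Kcns3. Its 15 bases were identical to those of the first of 2 such stretches in Kcnk2, a tested member that did not pass.

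Kcnt2 was the most abundant member by length (the plot of levels per kb of exon). It encodes a sodium-activated potassium channel. Its level was 4.96 CPM per kb of annotated exon averaged over all 8 libraries. Kcnmb4 (1.17 CPM per kb), Kcna4 (0.969), Kcnd1 (0.895) and Kcnab3 (0.594) came next. The libraries of Kcnt2 ran from 4.24 to 6.05 CPM per kb and did not overlap those of any other member. Those of Kcnmb4 ran from 0.159 to 2.37 and those of Kcna4 from 0.231 to 2.21, so the order behind Kcnt2 depended on the condition. The other 10 tested members lay between 0.0731 CPM per kb for the non-coding RNA Kcnq1ot1, whose annotated exon spans 93.1 kb, and 0.525 for Kcnn1.

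**Figure D1:**
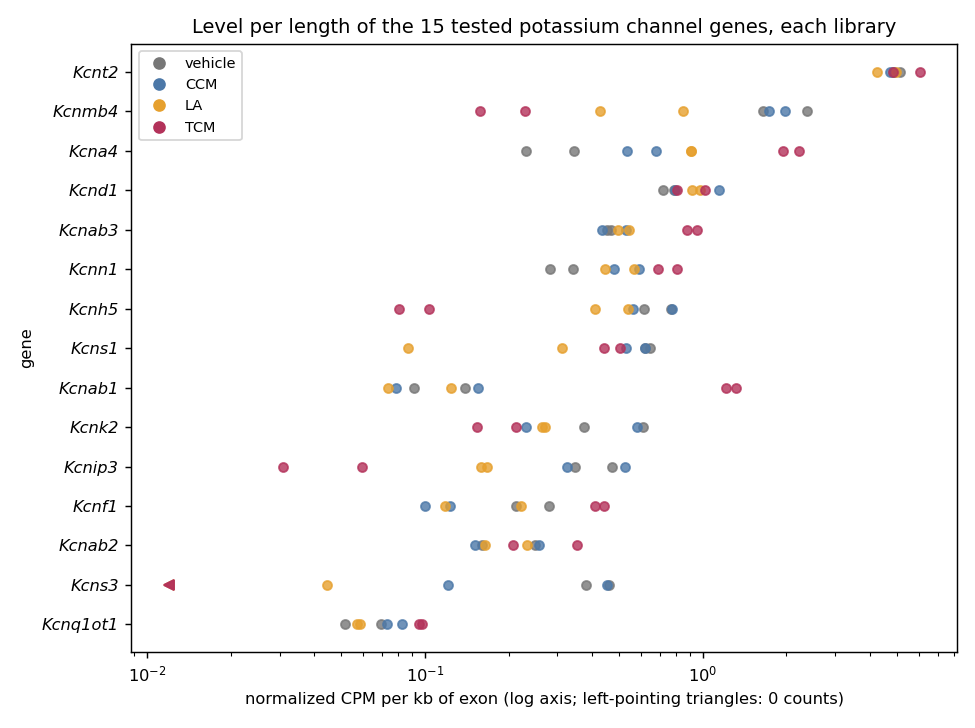
Level of the 15 tested potassium channel genes in each of the 8 libraries, as normalized CPM per kb of annotated exon on a log axis, with genes ordered by their mean. Kcnt2 lies above all others in every condition, while the points of Kcnmb4, Kcnh5 and Kcnip3 in TCM lie to the left of the rest and those of Kcna4 and Kcnab1 to the right.

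In TCM a voltage-gated pore gene, a silent subunit and the auxiliary subunits Kcnab1 and Kcnab3 were higher than in CCM, and another set of auxiliary and pore genes was lower. In edgeR's quasi-likelihood test with Benjamini-Hochberg adjustment over 12137 genes, 8 of the 15 tested members passed an adjusted P under 0.05 with a log2 FC beyond 0.39 between TCM and CCM. Of all genes tested, 19.1% passed. Kcnab1, Kcnf1, Kcna4 and Kcnab3 were higher in TCM, where 8.83% of all genes were, and Kcns3, Kcnmb4, Kcnip3 and Kcnh5 were lower, where 10.2% of all genes were. The median log2 FC of the 15 members was 0.18, against 0.00 over all genes tested. For 4 of these 8 the entry into the test depended on the groups where they were high, so the count of 8 is a description only. Kcns3 and Kcnip3 reached 10 counts only in vehicle and CCM libraries. Kcnab1 and Kcnf1 each had 2 libraries with 10 counts outside TCM, and met the minimum of 3 libraries through TCM.

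**Figure D2:**
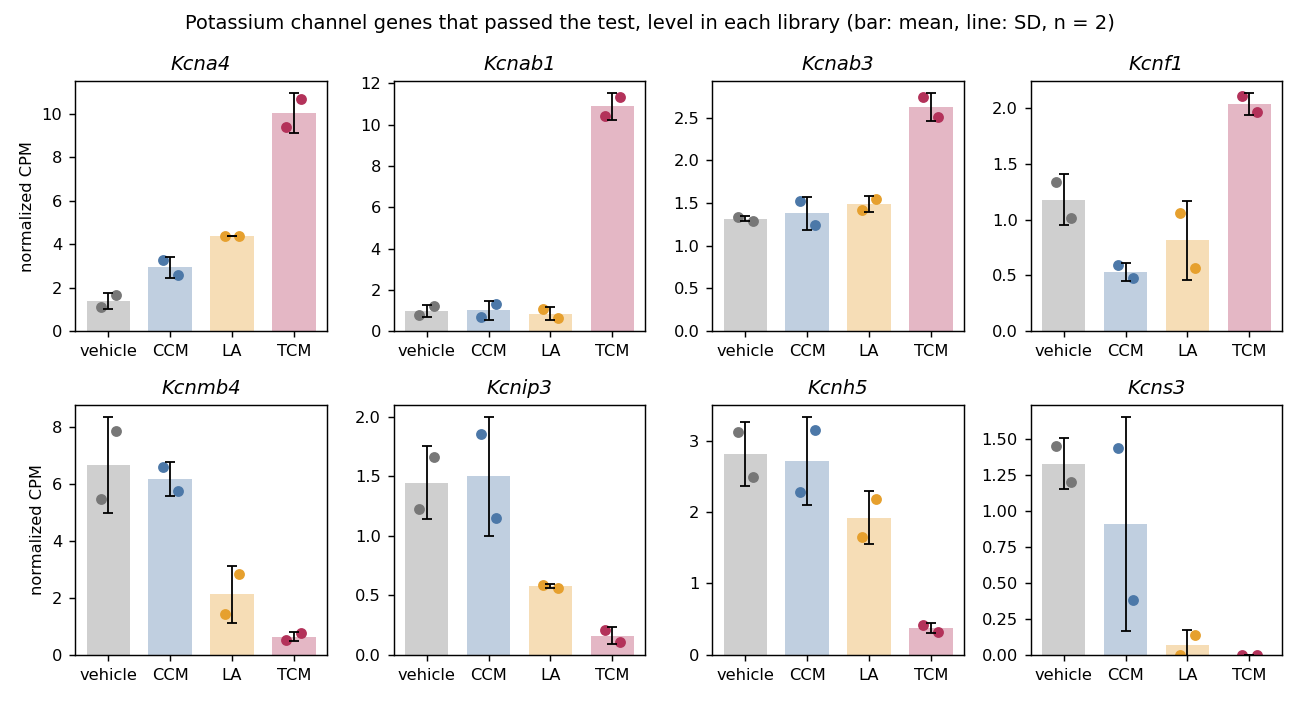
Normalized CPM in each library (points), mean (bars) and SD (lines, n = 2) for the 8 potassium channel genes that passed the test between TCM and CCM, over vehicle, CCM, LA and TCM. In the upper row both TCM libraries lie above all 6 others, and in the lower row below the vehicle and CCM libraries.

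Among the voltage-gated pore genes, Kcna4 rose in TCM. It lies at chr2:107290639-107298502 (GRCm38, plus strand) and encodes a fast-inactivating, A-type potassium channel. It had 10 and 18 counts in vehicle, 39 and 27 in CCM, 37 and 62 in LA and 89 and 98 in TCM. Both TCM libraries were thus above all others, and both vehicle libraries were the lowest. Its level was 1.39 ± 0.388 CPM in vehicle, 2.93 ± 0.501 in CCM, 4.38 ± 0.00248 in LA and 10.04 ± 0.931 in TCM. The log2 FC was 1.76 (SE 0.22, adjusted P = 0.000268) between TCM and CCM, a 3.39-fold rise, and 1.62 (SE 0.28, adjusted P = 0.0153) between LA and vehicle. CCM was itself above vehicle by a log2 FC of 1.06 (SE 0.30), which did not pass the test (adjusted P = 0.128). The reference level of the TCM comparison was therefore higher than that of the LA comparison, and the difference between the effects, 0.14 (SE 0.39), did not pass (adjusted P = 0.876). The rise in LA lost its call without any 1 of the 4 libraries compared (adjusted P from 0.0722 to 0.128), while the rise in TCM passed in all 16 alternative settings in which it was fitted.

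Kcnab1 had the largest log2 FC of the 4 genes that rose. Its product is a beta subunit that binds the inner face of Kv1-type channels, the class to which Kcna4 belongs, and speeds their inactivation. The gene lies at chr3:65109384-65378223 on the plus strand. Counts were 7 and 13 in vehicle, 8 and 14 in CCM, 9 and 9 in LA and 99 and 104 in TCM. The 6 libraries outside TCM overlapped one another, and both TCM libraries stood far above them. Its level of 10.9 ± 0.649 CPM in TCM compared with 1.01 ± 0.469 in CCM, a log2 FC of 3.45 (SE 0.31, adjusted P = 3.6e-05), or 10.9-fold. In LA it was 0.850 ± 0.304 CPM against 0.992 ± 0.297 in vehicle, with a log2 FC of -0.33 (SE 0.48, adjusted P = 0.848). The difference between the effects of TCM and LA was itself 3.77 on the log2 scale (SE 0.60, adjusted P = 0.00222), for a gene that was tested at all only because of its TCM counts.

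Of the other beta subunits of this class, Kcnab3 rose and Kcnab2 did not pass. Kcnab3, at chr11:69326258-69333042 on the plus strand, had 12 and 14 counts in vehicle, 18 and 13 in CCM, 12 and 22 in LA and 26 and 23 in TCM. Both TCM libraries were the highest, at 2.63 ± 0.162 CPM against 1.38 ± 0.195 in CCM. The log2 FC of 0.92 (SE 0.30) lay just inside the threshold (adjusted P = 0.0488) and lost its call in 13 of 16 alternative settings, where the adjusted P reached 0.265. Kcnab2 had 8 to 18 counts in all libraries and its groups overlapped, with a log2 FC of 0.47 (SE 0.44, adjusted P = 0.489).

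Silent voltage-gated subunits went both ways. Kcnf1, at chr12:17172100-17176888 on the minus strand, had 12 and 11 counts in vehicle, 7 and 5 in CCM, 9 and 8 in LA and 20 and 18 in TCM. Its level in TCM, 2.04 ± 0.101 CPM, was above every other library, and CCM was the lowest group at 0.534 ± 0.0795. The log2 FC was 1.90 (SE 0.42, adjusted P = 0.0089) between TCM and CCM, and here too the TCM counts brought the gene into the test. It did not hold without CCM replicate 1 (adjusted P = 0.0520) or CCM replicate 2 (0.0652). Between LA and vehicle it was -0.61 (SE 0.44, adjusted P = 0.613), and the 2 effects differed by 2.51 (SE 0.61, adjusted P = 0.0244). This difference rested partly on CCM, in which Kcnf1 stood below vehicle by a log2 FC of -1.10 that did not pass (adjusted P = 0.353).

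Kcns3 lies at chr12:11090202-11151056 on the minus strand and encodes a silent subunit that joins other voltage-gated pore subunits. It had 13 and 13 counts in vehicle, 17 and 4 in CCM, 0 and 2 in LA and 0 and 0 in TCM. The CCM libraries differed widely from each other, and both TCM libraries were at 0. With the floor of 3 counts per library, the level in TCM was at least 2.82-fold lower than the 0.908 ± 0.743 CPM of CCM. This bound rested on both CCM libraries, and was 1.19-fold without CCM replicate 1 and 4.46-fold without CCM replicate 2. The test gave an adjusted P of 0.0187, which rose to 0.119 without CCM replicate 1 and to 0.0650 when only the libraries compared were fitted. The 2 counts in LA against 26 in vehicle gave a level 14.9-fold lower (95% exact binomial interval 3.73 to 129). The adjusted P for LA was 0.0712, and it passed in 7 of 15 alternative settings, with 0.0226 to 0.0463 in those without a CCM or a TCM library. Kcns1, the remaining silent subunit, had 15 and 19 counts in vehicle, 20 and 15 in CCM, 2 and 12 in LA and 13 and 11 in TCM. Its log2 FC was -0.28 (SE 0.41, adjusted P = 0.670) in TCM and -1.48 (SE 0.46, adjusted P = 0.138) in LA, so neither passed.

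Kcnh5 fell in TCM. It lies at chr12:74897220-75177332 on the minus strand and encodes a voltage-gated channel of the ether-a-go-go family. Counts were 28 and 27 in vehicle, 27 and 33 in CCM, 14 and 31 in LA and 4 and 3 in TCM. Both TCM libraries were the lowest by a wide margin. In CPM both LA libraries (1.66 and 2.19) lay below both vehicle libraries (3.13 and 2.50) and both CCM libraries (2.28 and 3.15). The level of 0.374 ± 0.0665 CPM in TCM against 2.72 ± 0.620 in CCM gave a log2 FC of -2.81 (SE 0.44, adjusted P = 0.00112). For LA the log2 FC was -0.50 (SE 0.30, adjusted P = 0.533), and the 2 effects differed by -2.31 (SE 0.56, adjusted P = 0.0235).

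The voltage-gated gene Kcnd1, the fourth most abundant member by length, did not pass in any comparison. It encodes a Kv4-type A-type channel. It had 34 and 45 counts in vehicle, 72 and 44 in CCM, 41 and 73 in LA and 51 and 39 in TCM. In CPM the CCM, LA and TCM groups overlapped, and both vehicle libraries (3.80 and 4.16) lay below all others. The log2 FC was -0.10 (SE 0.24, adjusted P = 0.803) in TCM and 0.33 (SE 0.25, adjusted P = 0.629) in LA. Of the partners of this class of channel, Kcnip3 and Dpp6 passed between TCM and CCM. Kcnip3, whose product is a calcium-binding protein that joins Kv4 channels, fell from 22 and 12 counts in CCM to 2 and 1 in TCM. It had 11 and 18 counts in vehicle and 5 and 8 in LA. Both TCM libraries were below both LA libraries, which were below all vehicle and CCM libraries. The TCM level was 9.47-fold lower than that of CCM by counts (95% exact binomial interval 2.98 to 48.2), with a log2 FC of -3.15 (SE 0.61, adjusted P = 0.00402). The gene met the count minimum only through vehicle and CCM. Between LA and vehicle the log2 FC was -1.33 (SE 0.45) and did not pass (adjusted P = 0.183), and the difference between the effects, -1.82 (SE 0.83), did not pass either (adjusted P = 0.211). Kcnip3 lies at chr2:127456498-127522094 on the minus strand. Dpp6, a membrane protein of the same channel complex whose symbol lies outside the pattern, had 21 and 17 counts in vehicle, 26 and 23 in CCM, 18 and 38 in LA and 61 and 79 in TCM. It rose in TCM with a log2 FC of 1.77 (SE 0.26, adjusted P = 0.000795), opposite in direction to Kcnip3.

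Kcnmb4 fell in both TCM and LA. Its product is a beta subunit of the large-conductance calcium-activated channel, and the gene lies at chr10:116417861-116473878 on the minus strand. It had 49 and 85 counts in vehicle, 78 and 60 in CCM, 12 and 40 in LA and 5 and 7 in TCM. Both TCM libraries were below both LA libraries, and these were below all vehicle and CCM libraries. Levels were 6.67 ± 1.69 CPM in vehicle, 6.16 ± 0.596 in CCM, 2.12 ± 0.991 in LA and 0.645 ± 0.168 in TCM. The log2 FC was -3.24 (SE 0.41, adjusted P = 0.00027) between TCM and CCM, 9.43-fold lower, and -1.57 (SE 0.31, adjusted P = 0.0243) between LA and vehicle. Leaving out vehicle replicate 2 or LA replicate 1 ended the call in LA (adjusted P = 0.233 and 0.123). The difference between the effects, -1.66 (SE 0.56), did not pass (adjusted P = 0.0862), but did without LA replicate 1 (adjusted P = 0.0431). The pore gene that this subunit joins, Kcnma1, had 4 and 8 counts in vehicle, 9 and 5 in CCM, 5 and 2 in LA and 0 and 2 in TCM, too few to test. Kcnmb4os2, an antisense transcript over the start of Kcnmb4, had 7 and 2 counts in vehicle, 2 and 3 in CCM, 1 and 3 in LA and 0 and 0 in TCM.

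**Figure D3:**
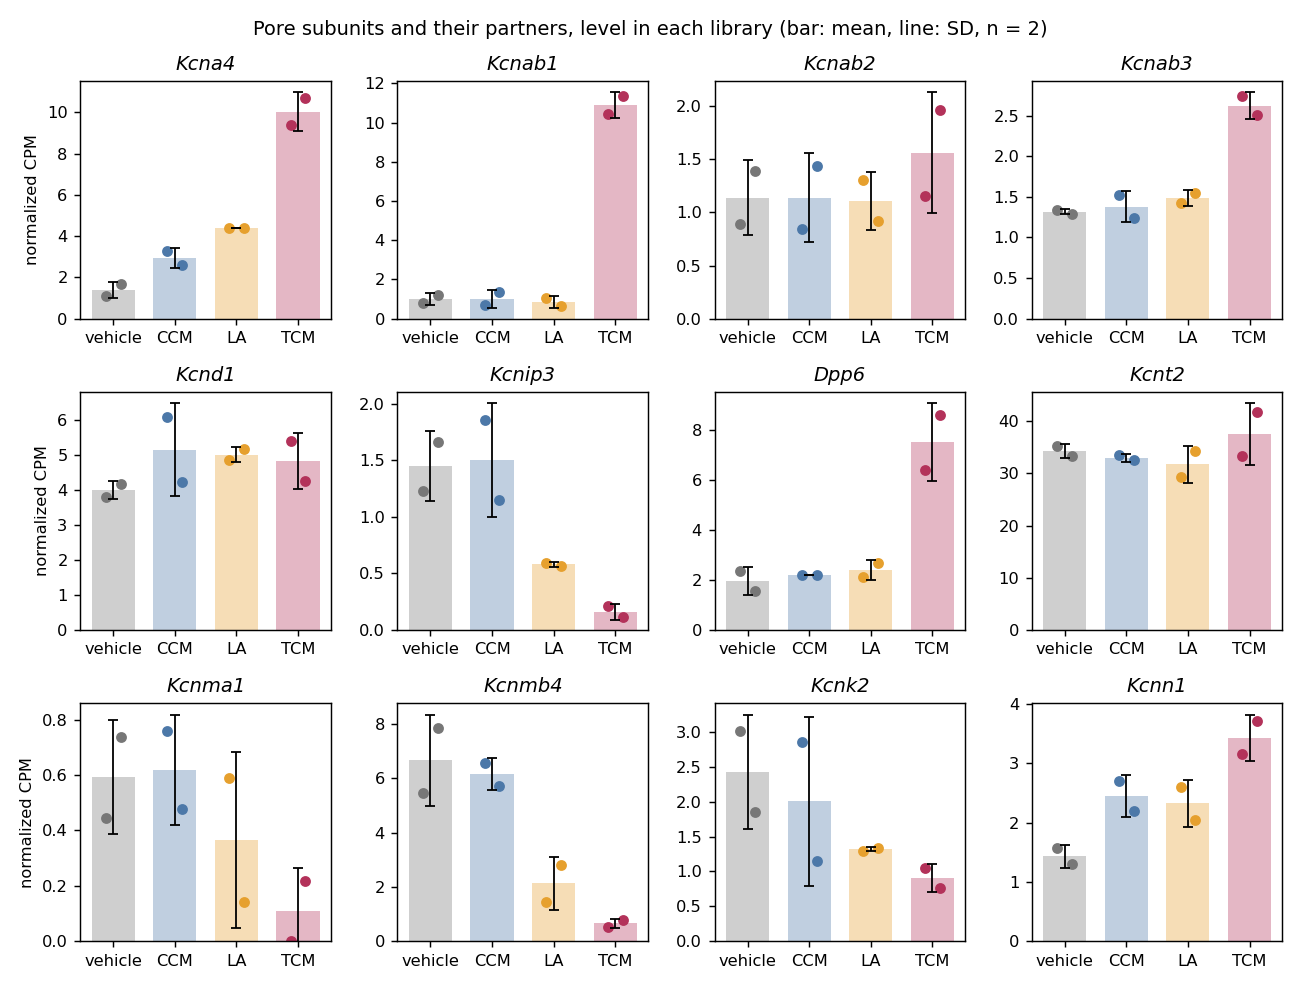
Normalized CPM in each library (points), mean (bars) and SD (lines, n = 2) of pore subunits beside their partners, with Kcna4 and its beta subunits in the upper row, Kcnd1 with Kcnip3 and Dpp6 and then Kcnt2 in the middle row, and Kcnma1 with Kcnmb4, Kcnk2 and Kcnn1 in the lower row. Kcna4, Kcnab1 and Dpp6 are highest in TCM, and Kcnip3 and Kcnmb4 are lowest there. The points of Kcnd1 overlap between CCM, LA and TCM, with both vehicle points below them.

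None of the tested channels opened by ions or stretch passed. Kcnt2 had 316 and 361 counts in vehicle, 398 and 340 in CCM, 247 and 486 in LA and 317 and 382 in TCM. Its levels ran from 29.2 to 41.7 CPM over all libraries and the groups overlapped. The log2 FC was 0.18 (SE 0.13, adjusted P = 0.357) in TCM and -0.10 (SE 0.13, adjusted P = 0.822) in LA. With the largest counts of all members, it had the smallest standard errors. Kcnk2, a stretch-sensitive two-pore-domain channel that carries background current, ran from 7 to 34 counts and was 0.909 ± 0.205 CPM in TCM against 2.01 ± 1.22 in CCM, whose libraries differed widely. Its log2 FC of -1.16 (SE 0.50) did not pass (adjusted P = 0.130), and leaving out CCM replicate 1 or 2 moved it to -0.33 (adjusted P = 0.781) or -1.64 (adjusted P = 0.0427). Kcnn1, a small-conductance calcium-activated channel, ran from 1.43 ± 0.190 CPM in vehicle to 3.44 ± 0.389 in TCM, with a log2 FC of 0.48 (SE 0.27, adjusted P = 0.238) between TCM and CCM and 0.68 (SE 0.32, adjusted P = 0.371) between LA and vehicle. For the imprinted antisense RNA Kcnq1ot1, at 8.95 ± 0.157 CPM in TCM and 7.23 ± 0.628 in CCM, the log2 FC was 0.31 (SE 0.19, adjusted P = 0.279).

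Between LA and vehicle, 2 of the 15 tested members passed, Kcna4 upward and Kcnmb4 downward beside the lower Tubb3 in LA given above, where 2.55% of all genes passed, 1.31% upward and 1.24% downward. The median log2 FC of the 15 members was -0.33, against 0.00 over all genes. Kcna4 and Kcnmb4 also passed between TCM and CCM, in the same direction. These comparisons share no library, but they came from 1 fit that shared its spread over all groups. In the paper's own tests most genes that differed in LA also differed in TCM. The overlap is therefore a description and not a trait of these members. Between CCM and vehicle none of the 15 passed in edgeR's quasi-likelihood test, where 1.30% of all genes did. Kcna4, Kcnn1 and Kcnf1, 3 of the 15, had an unadjusted P under 0.05 there, with log2 FC of 1.06, 0.79 and -1.10, and so did 12.9% of all genes. DESeq2 also called 0. In the test of the difference between the effects of TCM and LA, 3 of 15 passed, Kcnab1, Kcnf1 and Kcnh5, where 10.4% of all genes did. All 3 had passed in TCM and not in LA.

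**Figure D4:**
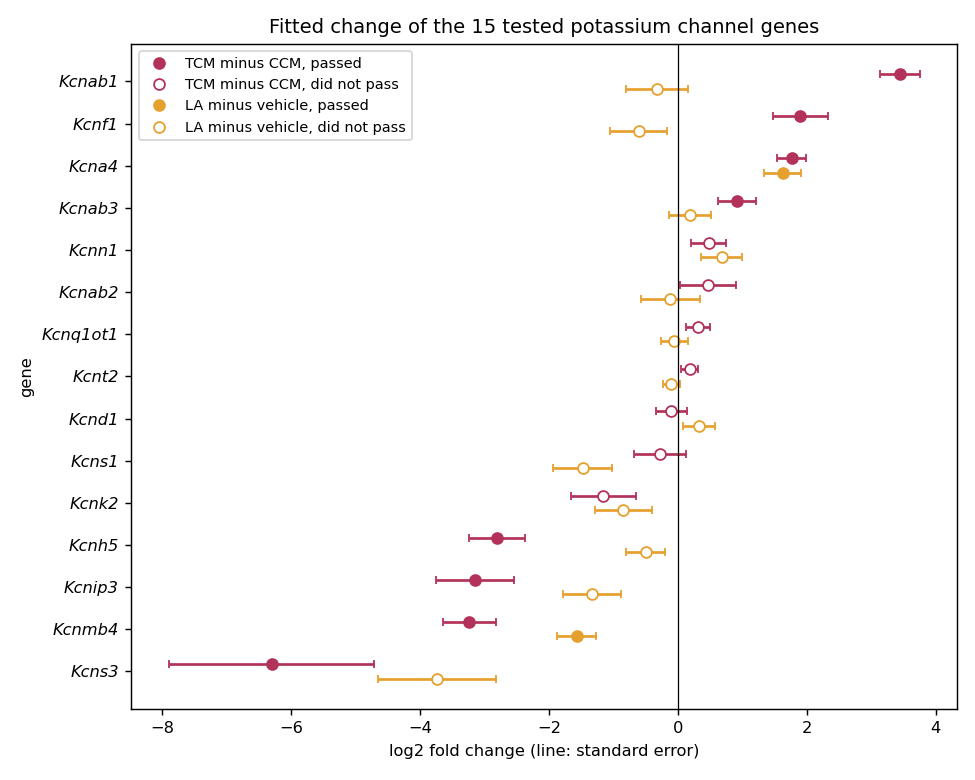
Fitted log2 fold change and its standard error for the 15 tested potassium channel genes, between TCM and CCM and between LA and vehicle, with filled points for those that passed an adjusted P under 0.05 and a log2 FC beyond 0.39. The points for TCM spread from -6.30 for Kcns3, whose TCM libraries are both at 0 so that the fitted value is no measured fold, to 3.45 for Kcnab1. The points for LA spread from -3.73 for Kcns3, with 0 and 2 counts in LA, to 1.62 for Kcna4.

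The 7 untested members were of low count in every condition. Kcnh2, a voltage-gated channel, had 2 to 12 counts per library. The inward rectifier Kcnj15 had 3 and 9 counts in vehicle, 8 and 7 in CCM, 1 and 4 in LA and 9 and 11 in TCM. Kcnj2, an inward rectifier known for setting the resting potential in many cells, had 0 to 7 counts, with 7 in CCM replicate 1 and in LA replicate 2 and 0 in both TCM libraries. The auxiliary gene Kcne4 had 0 to 5. Kcnma1 and Kcnmb4os2 are given above beside Kcnmb4. Differences among conditions in these members were not tested in the main fit. When all 22 members were fitted with no filter on low counts, none of these 7 passed in any comparison. By family, 15 Kcnj and 14 Kcnk symbols were in the table, of which 2 and 1 were members.

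The sequence just upstream of the annotated start is shown for 3 members that passed and have a single start in RefSeq (GRCm38.p6): Kcna4 and Kcnf1, which rose in TCM, and Kcnh5, which fell. Kcnmb4 also passed with a single start, but its window lies within the first exon of the GENCODE model and is not printed. Each window holds the 250 bases before the start, read 5′ to 3′ on the strand of the gene. Capitals mark matches to any of 5 motifs searched on both strands: CACGTG (the E-box), TGACGTCA (the cyclic AMP response element), TGANTCA (the AP-1 site), GGGCGG (the GC box) and TTCNNNGAA (the STAT site).
Kcna4, chr2:107290339-107290588, plus strand: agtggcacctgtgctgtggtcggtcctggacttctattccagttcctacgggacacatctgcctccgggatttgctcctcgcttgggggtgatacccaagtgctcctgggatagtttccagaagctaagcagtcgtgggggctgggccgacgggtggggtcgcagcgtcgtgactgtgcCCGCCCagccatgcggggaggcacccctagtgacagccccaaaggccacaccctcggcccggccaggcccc
Kcnf1, chr12:17176889-17177138, minus strand: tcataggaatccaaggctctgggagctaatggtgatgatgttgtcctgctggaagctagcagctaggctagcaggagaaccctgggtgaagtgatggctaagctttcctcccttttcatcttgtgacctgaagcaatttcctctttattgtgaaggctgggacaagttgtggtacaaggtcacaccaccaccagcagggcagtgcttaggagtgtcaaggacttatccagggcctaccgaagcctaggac
Kcnh5, chr12:75177333-75177582, minus strand: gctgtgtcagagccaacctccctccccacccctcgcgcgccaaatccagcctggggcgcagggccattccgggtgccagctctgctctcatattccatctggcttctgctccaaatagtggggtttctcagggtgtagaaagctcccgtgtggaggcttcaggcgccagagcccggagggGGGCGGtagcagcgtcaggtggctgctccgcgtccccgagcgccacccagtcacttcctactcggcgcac
The windows were 65.2% G or C for Kcna4, 51.2% for Kcnf1, 65.6% for Kcnh5 and 83.6% for Kcnmb4, against a median of 52.4% over 32851 such windows. The GC box matched once in Kcna4 and in Kcnh5, at 4 places in Kcnmb4 and not in Kcnf1. No other motif matched in these 4 windows. Over all windows 32.7% held the GC box, 6.02% the E-box, 1.55% the cyclic AMP response element, 6.75% the AP-1 site and 7.02% the STAT site. No match overlapped another. RefSeq entries were found for 19 of the 22 members.

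Other genes that move potassium or share its channels' work were read from lists, whose counts between TCM and CCM stand beside the 19.1% of all genes that passed. Of 15 channel partners outside the symbol pattern, 6 were tested between TCM and CCM, and Dpp6 alone passed. Among sodium pump subunits, which carry potassium into the cell, Atp1b1 fell (264 ± 9.97 CPM in TCM against 418 ± 1.77 in CCM, log2 FC -0.66, adjusted P = 0.0005) and 4 others of the 5 tested did not pass. Of 8 tested cotransporters and their kinases, Slc12a2, which brings in sodium, potassium and chloride, fell from 30.3 ± 1.31 CPM in CCM to 16.6 ± 0.335 in TCM (log2 FC -0.87, adjusted P = 0.00167), and the kinase Wnk4 fell with it (log2 FC -0.76, adjusted P = 0.00467). Slc12a2 also fell in LA, to 28.4 CPM from 45.3 in vehicle, by a log2 FC of -0.65 (adjusted P = 0.0292). CCM, at 30.3 CPM, also lay below vehicle, by a log2 FC of -0.58 that did not pass (adjusted P = 0.0597). Of 14 tested other cation channels, Cacna1a, a voltage-gated calcium channel, rose in TCM (log2 FC 1.38, adjusted P = 0.00262). Cacna1g, a low-voltage calcium channel, fell in TCM (log2 FC -2.06, adjusted P = 0.000136), as did the pacemaker channel Hcn2 (log2 FC -1.57, adjusted P = 0.000901) and Trpm4 (log2 FC -0.52, adjusted P = 0.0235). Cacna1g rose in LA instead, from 23.6 and 30.8 CPM in vehicle to 43.8 and 66.0 in LA (log2 FC 1.02, adjusted P = 0.0239), and the 2 effects differed by -3.08 (SE 0.30, adjusted P = 0.000111). The difference also passed for Atp1b1 (-0.79, adjusted P = 0.00261), Wnk4 (-1.15, adjusted P = 0.0046) and Cacna1a (2.03, adjusted P = 0.00413). It did not pass for Dpp6, Slc12a2, Hcn2 or Trpm4.

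Some members overlap exons of genes on the opposite strand in the annotation: Kcnab1 overlaps A330015K06Rik, Kcnab3 overlaps Kcnab3os, and Kcnmb4 overlaps Kcnmb4os1 and Kcnmb4os2. Among members that did not pass, Kcnt2, Kcnk2, Kcnn1 and Kcnq1ot1 have such overlaps as well. The libraries were directional, but whether the counting used strand is not given in the sources used here, so reads of such pairs cannot be told apart. Kcna4, Kcnf1, Kcns3, Kcnh5, Kcnip3 and Kcnd1 overlap no annotated exon of another gene.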

How the data were processed

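Per the labels, the submitters' processing notes and the study's methods, poly(A) RNA of 8 cultures was made into directional libraries. The authors aligned reads to GRCm38 (Ensembl) with STAR 2.7.0a and counted them per gene with featureCounts (Subread 2.0.1). The deposited values are whole-number counts per gene, not normalized; a second table, named as normalized, holds the same counts for 100% of its 12137 genes and was used only for that check. The authors' own tests used DESeq2 1.32.0.

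The fit took each gene that reached 10 counts in 3 or more libraries, scaled by TMM, over all 8 libraries in edgeR 4.0.16 (R 4.3.3, glmQLFit and glmQLFTest, robust). P values were Benjamini-Hochberg adjusted, with calls at 0.05 and an absolute log2 FC over 0.39. Values in every library are given for members called in any comparison, the 5 of highest level per length, and Kcns3 and Kcnab1, and other genes by range. Members and lists were chosen with earlier results of these data known. Gene positions and exon lengths are from GENCODE M21, which is not the annotation release of the counts. The labels tie replicate numbers to no shared batch. Same-numbered deviations correlated at 0.353 between vehicle and LA, 0.112 between vehicle and TCM and 0.106 between LA and TCM, but at -0.0406 to -0.242 in pairs with CCM, so the replicate block was kept as an alternative. Replicates are 2 cultures of 1 line, so P values measure only their spread. No column was left unused (0 columns). The counts of 1 untested member and the values of 1 listed gene are not reported here.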

Additional observations from a re-analysis of the deposited data

Results flagged for a closer look

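For 3 potassium channel genes the change between TCM and CCM differed from that between LA and vehicle by the test of the difference itself. Kcnab1 differed by 3.77 on the log2 scale (adjusted P = 0.00222), higher in TCM than in CCM in both libraries and overlapping in LA and vehicle. Kcnf1 differed by 2.51 (adjusted P = 0.0244), with TCM above CCM in both libraries and LA, at 1.06 and 0.564 CPM, overlapping with vehicle, at 1.34 and 1.02 CPM. Kcnh5 differed by -2.31 (adjusted P = 0.0235), with both TCM libraries below both CCM libraries. Both LA libraries, at 1.66 and 2.19 CPM, were also below both vehicle libraries, at 3.13 and 2.50 CPM, a smaller fall that did not pass. Under the alternatives fitted, Kcnab1 kept its call in all 14, Kcnh5 lost it in 4 and Kcnf1 in 6. Kcnab1 and Kcnf1 met the count minimum only through TCM, where they were high. None of the 3 could be fitted when 10 counts were required in every library. The fit with no filter on low counts dropped the count minimum, and all 3 passed there. All other settings kept that minimum. TCM differs from LA at 15 mmol/L in all else the melanoma cells release or take up, and the conditioning cells differ between TCM and CCM, and these cannot be told apart here.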

How the results depend on the processing

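The counts of members passing between CCM and vehicle stayed at 0 in every alternative. Between TCM and CCM the count of 8 became 2 of 6 tested when 10 counts were required in every library, which leaves fewer members, and 5 to 7 on leaving out a library (5 without CCM replicate 1). Between LA and vehicle, 2 became 1 under that filter and 0 to 3 on leaving out a library, with 0 without vehicle replicate 2 or LA replicate 1. For the difference of effects, 3 became 1 in DESeq2, 0 under that filter and 1 to 4 on leaving out a library. With the replicate block the counts were 7, 2, 0 and 3, and Kcnab3 was the call lost in TCM. With CCM numbers crossed, an alternative chosen after seeing the data, they were 8, 3, 0 and 4. The cause of these moves, the filter apart, was not tested.

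Signs of results that had not passed turned as follows, on leaving out a library unless stated. The log2 FC ranged from -0.33 to 0.20 for Kcnd1 in TCM, and in LA from -0.66 to 0.076 for Kcnab1, -0.37 to 0.25 for Kcnab2 and -0.27 to 0.16 for Kcnq1ot1. The difference of effects ranged from -0.19 to 0.37 for Kcna4 (-0.0047 with no TMM factors) and from -3.22 to 0.49 for Kcns3. Without TMM factors the median of all genes moved by -0.14 between TCM and CCM, and 7 members passed there. Genes of few counts, such as Kcns3 and Kcnip3, are limited by depth.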
